A study of Mus musculus with 6 samples.

Results

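The genes described here encode the proteins of the mitochondrial ribosome in haematopoietic stem cells (HSCs) sorted from mouse bone marrow. They were chosen by name alone, as every row of the deposited gene tables whose symbol begins with Mrpl or Mrps followed by a digit, with pseudogenes left out. This gave 78 of the 17068 genes, 49 named for the large subunit and 29 for the small one. All mice were of the Gfp-Lc3 genotype, a reporter of the autophagosome protein LC3, and RNA was profiled by 10X droplet single-cell sequencing. Each of the 6 libraries came from 1 mouse. The groups were young mice fed ad lib, young mice after a 24 hour fast, young mice after a 24 hour fast and 24 hours of refeeding, and old mice under the same 3 feeding conditions. No group was free of the reporter, and the labels give age only as young or old. The deposited tables pool the 6 libraries and compare each of 11 cell clusters, numbered 0 to 10, with all other cells, so neither age nor feeding could be compared for these genes. There is no replicate and no value below carries an error between animals.

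Mitochondria keep a small genome of their own, whose messages all encode membrane subunits of the respiratory chain and ATP synthase. They are translated inside the organelle by a dedicated ribosome whose RNAs come from the mitochondrial genome and whose proteins are all encoded in the nucleus, made in the cytoplasm and imported. Some of these proteins have counterparts in bacterial ribosomes, and others occur only in mitochondria. HSCs are known for low protein synthesis and for a low reliance on respiration while they are quiescent.

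Gene starts were examined first, because the members are scattered over the genome with no locus common to all. Mrpl46 and Mrps11 overlap at their starts on opposite strands of chromosome 7. The count of upstream starts below leaves out such overlaps. They lay on 17 chromosomes of GRCm38 (mm10), with 11 on chromosome 11, 8 on chromosome 17 and 7 on chromosome 6. Their genes were short, with a median of 7899.5 bases from start to end, against 24765.5 bases for 7558 other protein-coding genes within the members' range of expression levels. The start of another protein-coding gene, on the opposite strand, lay within 1000 bases upstream for 18 of 78 members (23.1%), against 11.3% of those other genes. RefSeq promoter windows of GRCm38.p6, each with 250 bases before and 50 after a start, were at hand for 69 members (75 windows). The bases before the start are shown for the large-subunit genes Mrpl36 and Mrpl12, which are among the members with the widest span over clusters, and for Mrpl33 and Mrpl52, which are among those with the highest levels. The 120 bases shown are all on the plus strand, at chr13:73330889-73331008, chr11:120484517-120484636, chr5:31613831-31613950 and chr14:54426789-54426908 in that order. Capitals mark matches to the searched motifs.
Mrpl36: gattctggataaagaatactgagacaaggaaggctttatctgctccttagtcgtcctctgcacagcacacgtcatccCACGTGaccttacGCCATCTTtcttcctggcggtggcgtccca
Mrpl12: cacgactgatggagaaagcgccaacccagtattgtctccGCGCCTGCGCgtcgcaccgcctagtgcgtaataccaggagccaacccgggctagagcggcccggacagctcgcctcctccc
Mrpl33: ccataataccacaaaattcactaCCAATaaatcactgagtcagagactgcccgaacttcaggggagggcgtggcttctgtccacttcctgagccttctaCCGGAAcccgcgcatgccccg
Mrpl52: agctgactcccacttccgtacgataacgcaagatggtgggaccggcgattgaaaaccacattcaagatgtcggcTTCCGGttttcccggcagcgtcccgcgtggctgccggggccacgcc

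In these stretches the Mrpl36 window has an E-box (CACGTG) beginning 43 bases before the start and the YY1 letters, on the other strand, at 30. The Mrpl12 window has the NRF1 letters, on the other strand, at 81. The Mrpl33 window has a CCAAT box at 97 and the ETS letters at 21, and Mrpl52 has the ETS letters, on the other strand, at 46. Over whole windows and on both strands, the ETS letters CCGGAA, the core bound by factors such as GABPA, were in 57.3% of the 75 member windows. They were in 30.2% of 8093 windows of other genes in the level range and in 14.9% of all 32851 windows. The YY1 letters AAGATGGC were in 16.0% of member windows, against 4.98% and 2.75%. The NRF1 letters, GCGCA and GCGC with any 1 base between them, were in 17.3%, against 11.4% and 4.60%. CCAAT was in 40.0% of member windows against 37.1% and 37.4%, CACGTG in 9.33% against 10.9% and 7.15%, and the TATA letters TATAAA in 6.67% against 6.43% and 13.6%. Each motif was searched by itself, so that the letters of one may overlap those of another, and a match is a description of the window.

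Members with and without the ETS letters had close medians in clusters 0, 4 and 7. In cluster 0 the median log2 fold change, cluster against all other cells, was 0.12 in the 40 members with the ETS letters and 0.09 in the 29 without. In cluster 4 these medians were -0.11 and -0.10, and in cluster 7 they were -0.52 and -0.49. The 5 members with an E-box had a median of 0.22 in cluster 0, against 0.10 in the other 64. Their medians were -0.17 against -0.10 in cluster 4 and -0.45 against -0.52 in cluster 7. In cluster 0 the medians with and without the letters were 0.11 and 0.11 for NRF1 and 0.12 and 0.10 for YY1. They were 0.13 and 0.09 for CCAAT and 0.09 and 0.11 for TATA. In cluster 7 they were -0.60 and -0.48 for NRF1 and -0.44 and -0.54 for YY1. For CCAAT they were -0.47 and -0.55 there, and for TATA -0.56 and -0.49. In cluster 4 all of these medians lay between -0.11 and -0.10.

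The members were expressed at moderate levels. Mean levels over all cells ran from 0.112 counts per 10000 for Mrpl37 to 3.44 for Mrpl52, with a median of 0.576, and all 78 lay above the median gene of the tables. Levels are counts per 10000 counts and are not divided by transcript length, so their order is an order of counts. Together the 78 genes made up 0.541% of all counts, against 36.8% for the 77 cytoplasmic ribosomal protein genes. Mrpl52, a mitochondria-specific large-subunit protein, and Mrpl23, which sits at the exit of the nascent chain tunnel, together held 10.5% of the members' counts. After them, on the log2 scale of mean level, came Mrps14 and Mrps33 at 0.56 each, Mrpl33 at 0.53, Mrpl34 at 0.51, Mrps16 at 0.49 and Mrps24 at 0.48. The lowest log2 levels were those of Mrpl37 (-3.16), Mrpl47 (-3.07), Mrps2 (-2.91) and Mrps27 (-2.89).

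The tables give no counts per library. Cell numbers read from the deposited p-values added up to 22378 cells, between 4904 and 3747 in clusters 0 to 4, then 1188, 310, 267, 173, 112 and 10 in clusters 5 to 10. The equivalent depth, estimated from the number of undetected genes, lay between 9579 counts per cell in cluster 7 and 15555 in cluster 4, and was 49249 in cluster 10. All 10 HSC markers looked up, among them Procr, Mecom and Hlf, were present, with a summed level of 17.4 counts per 10000. Markers of other blood and vessel cells were low in sum, at 0.0031 for T cells (Cd3d), 0.373 for B cells, 0.206 for granulocytes, 0.382 for endothelial cells, 1.22 for megakaryocytes, 2.54 for erythroid cells and 2.66 for monocytes, nearly all of it Lyz2. Cycling markers summed to 0.214. The clusters were defined on these same expression values, and the deposited p-values count cells and not mice as replicates. Each contrast of a cluster with the other cells is therefore a description, and the adjusted p below serves as a filter on noise.

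Member values were small in the large clusters. Median log2 fold changes in clusters 0 to 5 were 0.12, 0.01, -0.05, 0.04, -0.10 and -0.02. No member reached a log2 fold change of 0.5 in size with an adjusted p under 0.05 in clusters 0 to 6. The shares of all 17055 detected genes that did so were 9.02%, 2.53%, 6.51%, 2.61%, 1.74%, 5.01% and 26.2% in these clusters. Among the other genes of the members' level range the shares were smaller, at 3.0%, 0.10%, 2.14%, 0.53%, 0.21%, 0.24% and 18.5%. In clusters 0 to 5, 0 of 78 is therefore near that background. The smaller clusters had wider shifts, with medians of -0.01, -0.51, 0.27, -0.19 and 0.34 in clusters 6 to 10. The summed level of the 78 genes was 57.4, 51.1, 37.8 and 62.5 counts per 10000 in clusters 0, 4, 7 and 8.

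**Figure D1:**
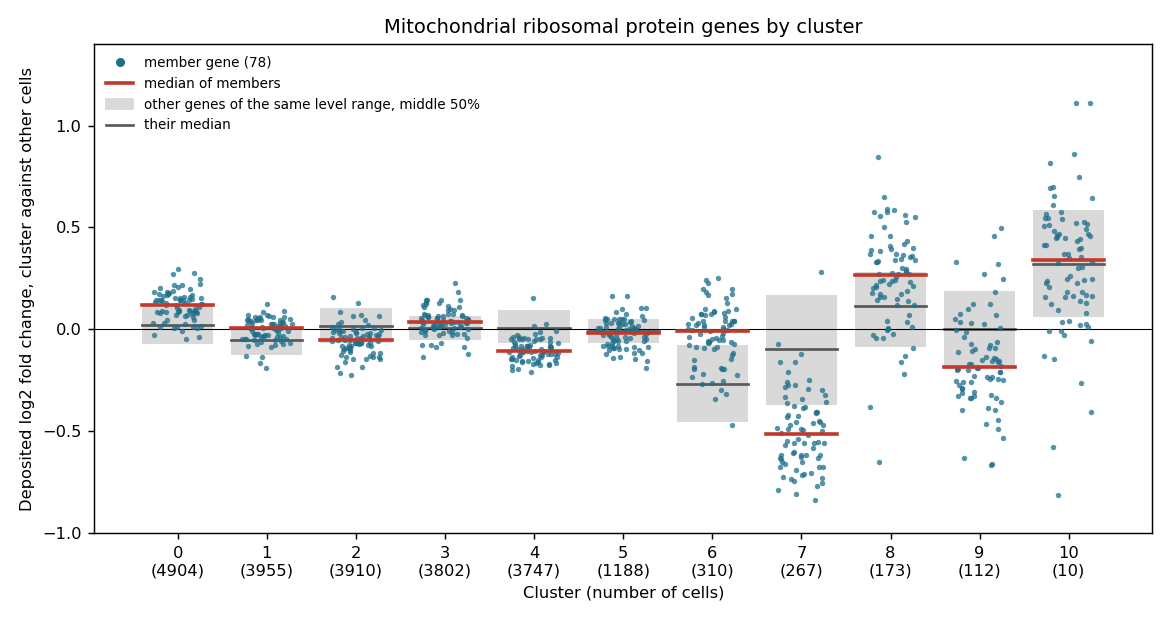
Deposited log2 fold change of each of the 78 members (points) in each cluster against all other cells, with the number of cells under each cluster. Red lines are member medians, grey boxes the middle 50% and dark lines the median of 7808 other genes within the members' level range. The member median lies near the upper edge of the box in cluster 0 (0.12) and below the box in clusters 4 (-0.10) and 7 (-0.51). It also lies above the box in cluster 6 (-0.01) and just below it in cluster 9 (-0.19).

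Clusters 0 and 4 were the extremes among the large ones. In cluster 0, 74 of 78 members were above 0, the median fold change was 0.12 (1.09-fold), and 57 members were higher at an adjusted p under 0.05 alone, against 19.6% of all genes and 31.1% of the other genes in the level range. In cluster 4 only Mrps27, Mrps21 and Mrps5 were above 0, and 50 members were lower by the same filter, against 9.96% of all genes and 15.2% in the level range. Set against the 400 genes nearest in mean level, 66 members lay above the neighbours' median in cluster 0 and 4 did in cluster 4. Gene length bears on this comparison. When those 400 were narrowed to the 100 nearest in gene length, the neighbours' own median moved from 0.03 to 0.05 in cluster 0 and from -0.01 to -0.06 in cluster 4, and 62 and 11 members then lay above it.

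Other values differed between these clusters as well. The nuclear RNAs Malat1 and Neat1 stood at -0.41 and -0.35 in cluster 0 and at 0.35 and 0.55 in cluster 4. The 4 megakaryocyte markers were all above 0 in cluster 0, with Itga2b at 1.17, Pf4 at 0.79 and Gp9 at 0.75, and all below 0 in cluster 4. Their summed level was 1.92 counts per 10000 in cluster 0 and 1.07 in cluster 4. Of the 10 HSC markers 1 was above 0 in cluster 0 and all 10 were in cluster 4, with summed levels of 13.3 and 19.7 counts per 10000. Procr (-0.94), Ly6a (-0.79) and Mllt3 (-0.78) were the lowest in cluster 0. All 4 cycling markers were above 0 in cluster 0 and 2 were in cluster 4, with summed levels of 0.261 and 0.201 counts per 10000. Myc stood at 0.52 in cluster 0 and -0.12 in cluster 4, and Mycn at -0.41 and 0.01. The equivalent depth was 13041 counts per cell in cluster 0 and 15555 in cluster 4. The part of these in the members' values was not tested.

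Levels relative to the mean over all cells allow the clusters to be ordered gene by gene. Among clusters 0 to 4, 59 members were highest in cluster 0 (75.6%, against 32% of 7808 other genes in the level range) and 52 were lowest in cluster 4 (66.7% against 18.3%). Both held for 39 members, or 50% against 8.26%. Among genes of the members' middle range of lengths, from 4494 to 12533 bases, it held for 21 of 38 members (55.3%) and for 15.1% of 1494 others. Cluster 0 exceeded cluster 4 in 76 of 78 members, with a median log2 difference of 0.18 (1.13-fold), against 0.01 in the other genes and 0.08 in those of like length. Mrps27 (-0.12) and Mrpl1 (-0.01) were the exceptions.

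**Figure D2:**
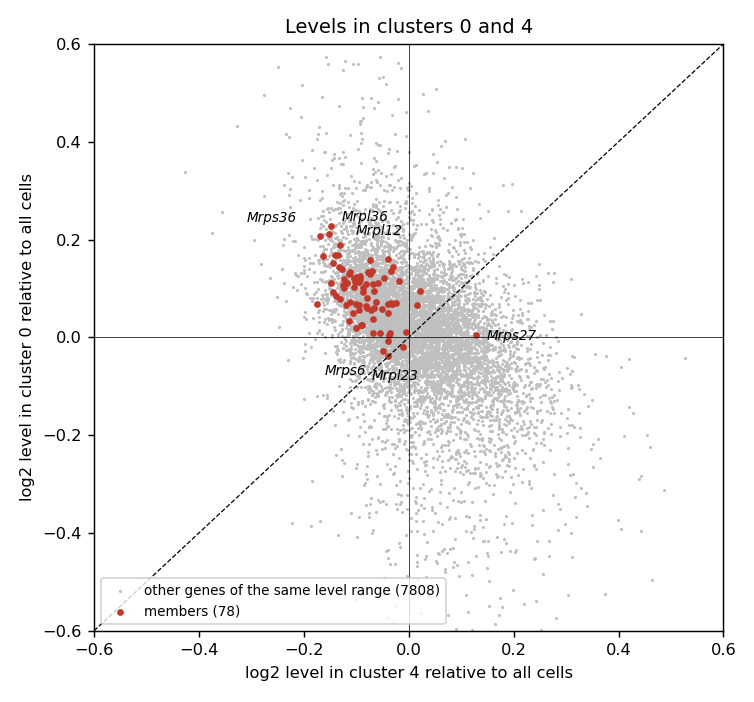
Log2 level in cluster 0 against that in cluster 4, each relative to the mean over all cells, for the 78 members (red) and 7808 other genes of the same level range (grey), with the line of equal level dashed; a few genes lie outside the axes. The members gather above the line, 76 of 78, with Mrps36, Mrpl36 and Mrps28 farthest from it and Mrps27 below it.

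The widest spans over clusters 0 to 5 belonged to Mrpl36 (0.51), Mrps36 (0.47), Mrpl12 (0.47), Mrps28 (0.46) and Mrps18b (0.44). Mrpl36, a short bacterial-type large-subunit protein, had log2 fold changes of 0.30, -0.03, -0.22, 0.05, -0.18, 0.03, -0.02, -0.41, 0.37, -0.34 and 0.47 in clusters 0 to 10. By the adjusted p it was higher in clusters 0 and 8 and lower in clusters 2, 4 and 7. Mrpl12, the stalk protein that recruits translation factors and also binds the mitochondrial RNA polymerase, had 0.25, -0.05, -0.22, 0.15, -0.16, 0.04, -0.05, -0.63, 0.21, -0.32 and 0.58. Like Mrpl36 it was high in cluster 0 and low in clusters 2, 4 and 7, and it was higher in cluster 3. Mrps28, a small-subunit protein, stood at 0.28 in cluster 0, -0.18 in cluster 2 and -0.18 in cluster 4.

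Other members were nearly flat. Mrpl4 spanned 0.06 over clusters 0 to 5, Mrpl49 and Mrpl10 0.11 each, and Mrpl39 and Mrpl38 0.13 each. The most abundant pair stood near 0 in cluster 0, Mrpl52 at 0.01 and Mrpl23 at -0.03. Mrpl52 had values of 0.01, 0.05, -0.05, 0.12, -0.08 and 0.01 in clusters 0 to 5. Mrps6, of the small-subunit platform, was the lowest member in cluster 0 at -0.05, and Mrpl1, of the L1 stalk, stood at -0.03.

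Cluster 2 resembled cluster 4 in direction. There 14 of 78 members were above 0 and 25 were lower at an adjusted p under 0.05, against 13.6% of all genes and 17.7% in the level range, while 3 were higher, against 16.4% and 24.6%. Mrpl12 and Mrpl36 were the lowest (-0.22 each). The 3 higher members were Mrpl9 (0.16), Mrpl1 (0.13) and Mrpl23 (0.07). Mrpl9 and Mrpl1, both of the bacterial-type large subunit, were the members lowest in cluster 3 (-0.12 and -0.14). Of the 78 members 10 lay above the median of genes of like level in cluster 2, and 19 above that of genes of like level and length.

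Cluster 3 had 17 members higher (21.8%), against 8.4% of all genes and 13.5% in the level range, and 4 lower (5.13%), against 7.59% and 10.3%. Mrps18b (0.23), Mrps2 (0.18) and Mrpl2 (0.15), the last a protein of the peptidyl transferase region, led there. In cluster 1 the filter passed 4 higher members, against 3.71% of all genes and 5.42% in the level range, and 2 lower ones, against 17.1% and 27.4%. Mrpl14 was highest at 0.13 and Mrps2 lowest at -0.19. Although the cluster 1 median was only 0.01, 63 members lay above genes of like level, whose median was -0.05, and 53 above genes of like level and length. In cluster 5 no member passed the filter, against 7.2% of all genes and 3.97% in the level range in either direction.

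Cluster 7, with 267 cells, had the lowest levels. In 77 of 78 members the value was below 0, 40 were lower by at least 0.5 with an adjusted p under 0.05, against 24.3% of all genes and 13.7% of those in the level range, and 59 were lower by the adjusted p alone, against 28.2% of all genes and 21.4% in the level range. Mrpl58, a peptidyl-tRNA hydrolase built into the large subunit, stood at -0.84, Mrps34 at -0.81 and Mrpl49 at -0.79. The members with the highest levels were low too, with Mrpl52 at -0.67 and Mrpl23 at -0.43. Mrpl37 alone was above 0 (0.28, on an estimated 34.6 counts), and Mrps18b (-0.07) and Mrps5 (-0.12) were near it. Genes of like level had a median of -0.14 and genes of like level and length one of -0.31, and 6 and 13 members lay above them.

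**Figure D3:**
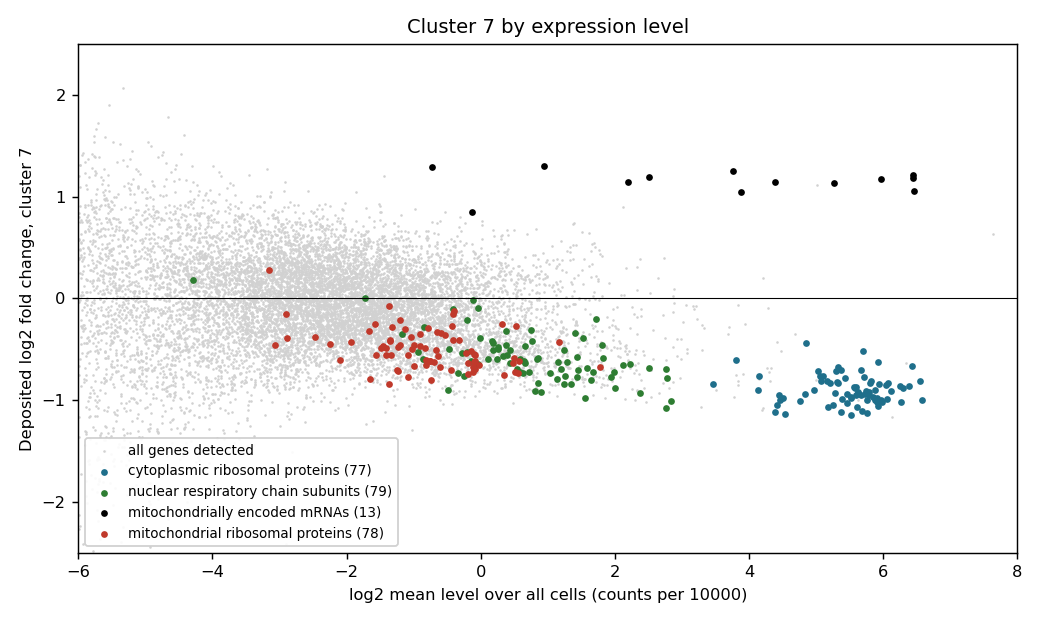
Deposited log2 fold change in cluster 7 against mean level over all cells (log2 of counts per 10000) for all detected genes on the axes (grey) and 4 gene groups. Mitochondrial ribosomal protein genes (red) lie mostly below 0, cytoplasmic ribosomal protein genes (blue) lower still at a median of -0.92, and messages of the mitochondrial genome (black) all above 0 at a median of 1.17.

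Other values moved with the members in cluster 7. All 13 messages of the mitochondrial genome were higher, with a median of 1.17. The nuclear RNAs Malat1 and Neat1 each stood at 0.63. The equivalent depth was the lowest of all clusters. On the scale of the deposited folds, a gene seen only as single counts in cells would shift by -0.11 from depth alone. The part of these in the members' low values was not tested.

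The other small clusters went in different directions. In cluster 8, with 173 cells, 67 of 78 members were above 0, against 65.7% of the other genes in the level range. Genes of like level had a median of 0.14 there, and 57 members lay above them. Above genes of like level and length lay 56 members. Of the members 11 were higher by at least 0.5 with an adjusted p under 0.05, against 2.37% of all genes and 4.12% in the level range. By the adjusted p alone 28 were higher (35.9%), against 6.55% of all genes and 11.9% in the level range. By the same filter 1 was lower (1.28%), against 20.4% and 4.88%. Mrpl37 (0.85, on 42.6 estimated counts), Mrpl22 (0.65), Mrpl3 (0.59), Mrps30 (0.58), Mrpl9 (0.58) and Mrps11 (0.57) led the 11. The lower one was Mrpl23 (-0.38), the second most abundant member. Of the other 7 with the highest levels, Mrpl52 (-0.16) and Mrps16 (-0.00) were also below 0, and Mrpl33, Mrpl34, Mrps24, Mrps33 and Mrps14 lay between 0.22 and 0.39. Malat1 was at -1.15 in this cluster, and its part in the result was not tested.

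In cluster 6, with 310 cells, the member median was -0.01 while that of genes of like level was -0.25. Thus 74 members lay above such genes, and 63 above genes of like level and length. By the adjusted p alone 1 member was higher, Mrps33 (0.20), against 0.352% of all genes, and 2 were lower, Mrps15 (-0.34) and Mrps9 (-0.32), against 33.6% of all genes and 34.0% in the level range. The messages of the mitochondrial genome were low in these cells, with a median of -0.74 and all 13 below 0. All 5 erythroid markers were above 0 here, with a summed level of 10.9 counts per 10000 against 2.54 over all cells. The 3 monocyte markers, Cd3d (4.94) and 3 of 5 granulocyte markers were above 0 too. Of the 10 HSC markers 0 were above 0, with a median of -0.36. Also 0 of 4 megakaryocyte, 0 of 4 B cell and 0 of 3 endothelial markers were above 0. The equivalent depth was 9651 counts per cell. The part of depth and of these markers in the members' values was not tested.

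Cluster 9, with 112 cells, had 3 members lower by at least 0.5, namely Mrpl18 (-0.66), Mrps34 (-0.66) and Mrps25 (-0.53), against 19.9% of all genes and 1.88% in the level range. The adjusted p alone passed 5 lower members (6.41%), against 20.6% of all genes and 2.79% in the level range. Cluster 10 held only 10 cells. Mrps18b (1.11) and Mrpl33 (0.70) passed the size rule upwards, against 1.79% of all genes and 3.65% in the level range, and 3 members passed the adjusted p alone, against 2.13% and 4.25%. The member median there (0.34) was close to that of genes of like level (0.31). A gene seen only as single counts in cells would shift by 0.30 from depth alone.

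The spread between members can be set beside counting error. The SD of the fold change over the 78 members was 0.07 in cluster 0, against 0.03 from Poisson counting of their estimated counts, a ratio of 2.49. The ratio was 1.62, 2.10, 2.06 and 1.86 in clusters 1 to 4, and 1.20 in cluster 5 (0.07 against 0.06). The SD was 0.15 against 0.13 in cluster 6, 0.20 against 0.16 in cluster 7, 0.23 against 0.18 in cluster 9 and 0.32 against 0.27 in cluster 10. Cluster 8 had 0.24 against 0.14, a ratio of 1.77. The order of single members in clusters 5, 6, 7, 9 and 10 is therefore close to what these counts can resolve.

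The structural classes of the ribosome moved alike. In cluster 0 the median fold change was 0.14 in the 30 bacterial-type large-subunit genes, 0.12 in the 21 mitochondria-specific large-subunit genes, 0.11 in the 16 bacterial-type small-subunit genes and 0.10 in the 10 mitochondria-specific small-subunit genes. The same classes stood at -0.09, -0.12, -0.08 and -0.12 in cluster 4 and at -0.53, -0.52, -0.56 and -0.38 in cluster 7. In cluster 4 no Mrpl gene of 49 was above 0, while 3 Mrps genes of 29 were. No class was set apart from the others by more than 0.05 in cluster 0 or 4.

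**Figure D4:**
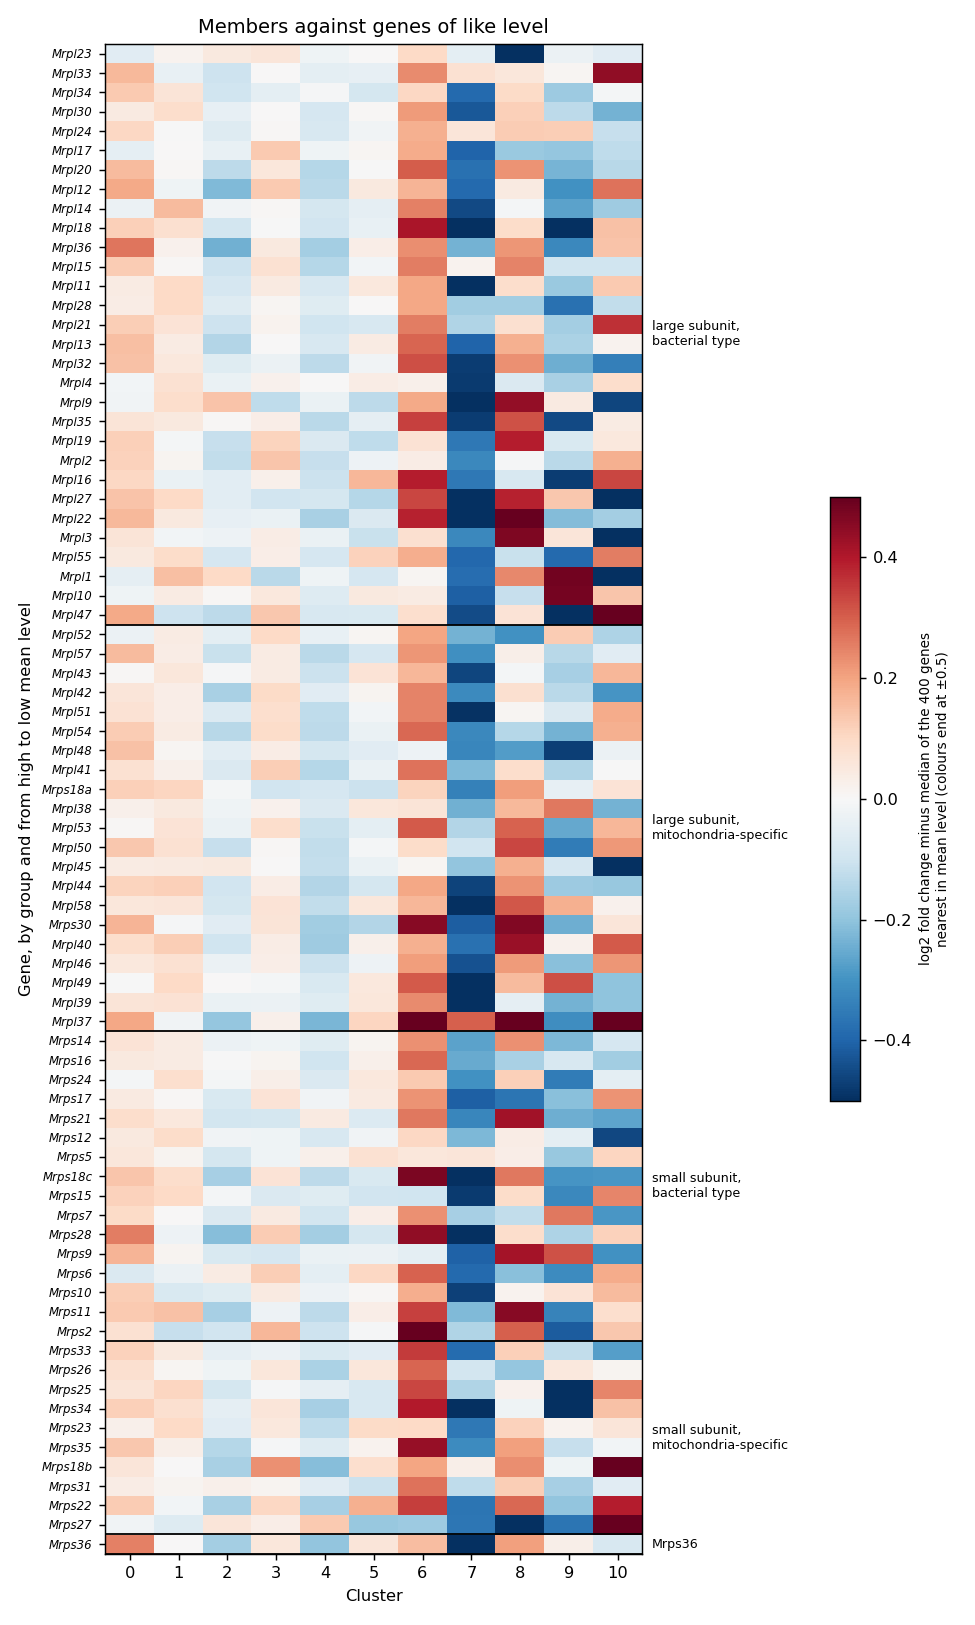
Log2 fold change of every member (rows, by structural class and level) in each cluster (columns), minus the median of the 400 genes nearest in mean level; colours end at 0.5 in either direction. Cluster 0 is mostly red and cluster 4 mostly blue in every class, cluster 6 is red in 74 rows, and cluster 7 is blue in 72.

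Paralogs and members with unusual roles are described gene by gene. Mrps18a, Mrps18b and Mrps18c descend from 1 bacterial protein, and Mrps18a occupies the large subunit in spite of its name. Their values in cluster 0 were 0.14, 0.09 and 0.17, and in cluster 3 they were -0.09, 0.23 and 0.07. In cluster 7 they were -0.47, -0.07 and -0.68. Mrps30, another large-subunit protein with a small-subunit name, stood at 0.20, -0.17, -0.49 and 0.58 in clusters 0, 4, 7 and 8. Mrpl45, which helps to hold the ribosome at the inner membrane, stood at 0.07 in cluster 0 and -0.11 in cluster 4. Among clusters 0 to 4 its relative level was highest in cluster 2 and lowest in cluster 4. Mrps36 has since been assigned to the 2-oxoglutarate dehydrogenase complex of the citric acid cycle. It stood at 0.27, -0.20 and -0.77 in clusters 0, 4 and 7, beyond the median member each time.

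Mrps27, an RNA-binding small-subunit protein of low level, had values with the opposite sign to the member median in clusters 1, 2, 4 and 8. Its values were 0.01, -0.14, 0.09, 0.05, 0.15, -0.19, -0.47, -0.38, -0.65, -0.34 and 1.11 in clusters 0 to 10. It was the highest member in cluster 4 and the lowest in clusters 5, 6 and 8. It passed the adjusted p in none of the 11 clusters, and rested on 18.4 estimated counts in cluster 8.

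Other genes of the same system followed the members in part. The 5 mitoribosome proteins without an Mrpl or Mrps name had a median of 0.08 in cluster 0, -0.09 in cluster 4 and -0.57 in cluster 7. Among them Gadd45gip1 (-0.67), Chchd1 (-0.61), Aurkaip1 (-0.57) and Dap3 (-0.40) were lower in cluster 7 and Ptcd3 (0.67), an RNA-binding small-subunit protein, was higher, all with an adjusted p under 0.05. The 23 assembly factors had medians of 0.12, -0.09 and -0.29 in clusters 0, 4 and 7, with 7 of 23 passing the adjusted p upwards in cluster 0, near the 31.1% of genes in the members' level range, and 6 of 23 downwards in cluster 4, where that share was 15.2%. The list of 16 translation factors and RNA-stability proteins had 0.06, -0.01 and -0.04, and the 17 mitochondrial aminoacyl-tRNA synthetases, which charge the transfer RNAs, 0.10, 0.02 and 0.18. The synthetase Tars2 stands in both lists. Within the factors of cluster 7, Slirp (-0.92) and Lrpprc (0.73), whose products bind each other and stabilise mitochondrial messages, stood on opposite sides.

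The nuclear genes of the respiratory chain, whose products assemble with those made on this ribosome, had values near those of the members. The 81 genes had medians of 0.13, 0.01, -0.07, 0.03, -0.09, -0.04, 0.06, -0.62, 0.34, -0.10 and 0.26 in clusters 0 to 10. By the adjusted p alone 67 of 81 were higher in cluster 0, against 19.6% of all genes and 31.1% in the members' level range. In cluster 4, 70 of 81 were lower, against 9.96% and 15.2%. The median log2 level of these 81 genes was 0.66, against -0.80 for the members, so both shares are a loose background for them. Messages of the mitochondrial genome, the templates of this ribosome, had medians of 0.00 in cluster 0 and -0.03 in cluster 4. Cytoplasmic ribosomal protein genes had medians of 0.03 and -0.01 in these clusters, and their highest median was in cluster 1 (0.06), where 65 of 77 were higher by the adjusted p alone, against 3.71% of all genes. Their median log2 level was 5.59, against -3.36 for all genes, so the share of all genes is a loose background for them. In cluster 0 the same filter passed 42 of them upwards and 24 downwards, against 3346 and 3172 of all 17055 genes. In cluster 8 the cytoplasmic genes were at -0.07 and the members at 0.27. All these comparisons use the same cells, so that the lists are not independent of one another.

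**Figure D5:**
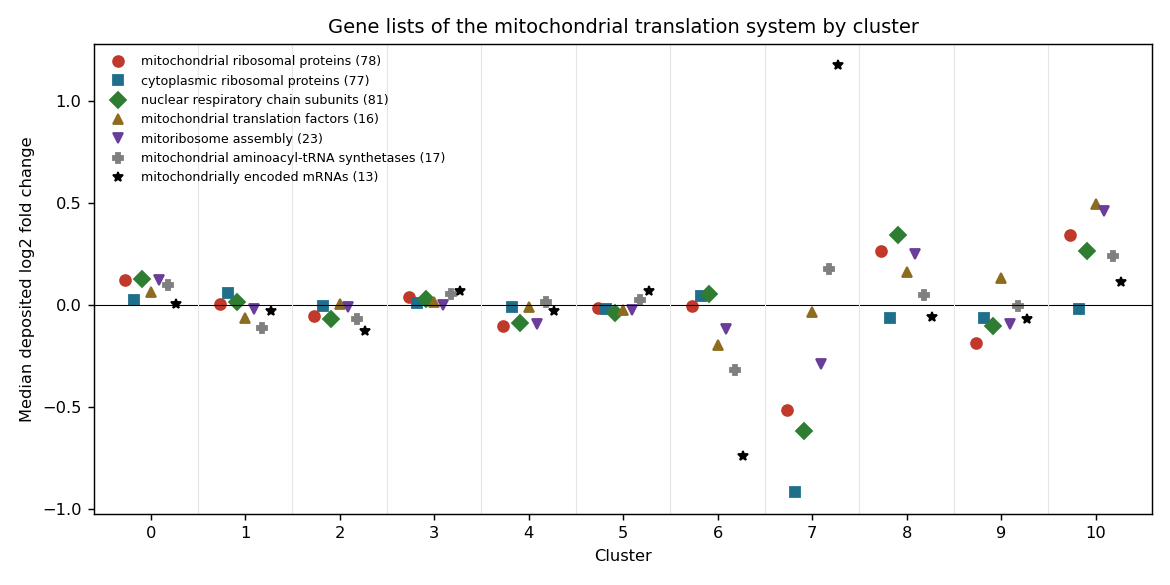
Median deposited log2 fold change of 7 gene lists of the translation system in each cluster, with the number of genes in each list in brackets. Mitochondrial ribosomal protein genes (red circles) and nuclear respiratory chain genes (green diamonds) lie close together, while messages of the mitochondrial genome (black stars) depart from both in clusters 6 (-0.74) and 7 (1.17).

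The authors' deposited table of pathway scores, which are test statistics over cells, gave the Reactome set for mitochondrial translation a score of 21.8 in cluster 0, rank 45 of 2922 pathways. In the authors' deposited table for cluster 4 the score was -16.2, rank 2917 of 2922. The authors' deposited table gave -9.57, 6.67, -13.0 and 9.38 in clusters 2, 3, 7 and 8. For the KEGG ribosome set the authors' deposited table gave 16.7 in cluster 1, rank 7, but 6.81 in cluster 0 and -3.24 in cluster 4. The make-up of these sets was not examined here, and the scores come from the same cells as the folds.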

How the data were processed

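The authors deposited 22 tables, one of genes and one of pathways per cluster (11 clusters), with the 6 libraries pooled. Per the submitters' processing notes they used Scanpy on mm10. Aligner, cell filters, doublet handling and clustering: not given in the sources used here. In the gene tables the authors give the log2 mean level of counts scaled to 10000 per cell, a log2 fold change of the cluster against all other cells, and a p-value over cells with an adjusted p-value, which matched a Benjamini-Hochberg adjustment over the genes of the table. The pathway tables hold the authors' score, a signed test statistic. The folds compare means taken on a logarithmic scale, so depth can move them.

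From these, cell numbers were recovered from the p-values of genes seen in 1 cell, and levels relative to all cells from folds and cell numbers. Equivalent depth was taken from the number of undetected genes. Depth per library is unknown. Each member was set beside the 400 genes nearest in mean level. A size rule (fold of at least 0.5 in size, adjusted p under 0.05) and the adjusted p alone served for counts. Alternatives were a fold limit of 0.25, means, 100 or 1000 nearest genes and another member list. Matching on gene length, and the order by deposited folds, were added after the data were seen. Named members were the 8 highest and 4 lowest in level, the 3 highest and 3 lowest folds in clusters 0 to 7, the 5 widest and 5 narrowest ranges, those past the size rule and 8 chosen by role. Members and lists were chosen with earlier results of these data known. The steps were tested on simulated data. Python 3.11.15, pandas 2.3.3, NumPy 2.4.6, SciPy 1.17.1 and matplotlib 3.10.9 were used, with GENCODE M21 gene models.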

Additional observations from a re-analysis of the deposited data

How the results depend on the processing

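The counts above genes of like level stayed within 1.5 times the reported count in every cluster with 100 or 1000 nearest genes, and with Mrps36 out and Dap3, Chchd1, Aurkaip1, Ptcd3 and Gadd45gip1 in. With the 100 genes nearest in gene length among the 400, a setting chosen after seeing the data, they moved to 19 in cluster 2, 11 in cluster 4 and 13 in cluster 7, on the same side. The count of 39 members highest in cluster 0 and lowest in cluster 4 was also 39 by the deposited folds. Leaving out members below the median level changed nothing, since all 78 lie above it. With a fold limit of 0.25, 3 members were called higher in cluster 0, 28 higher and 1 lower in cluster 8, 2 lower in cluster 6 and 5 lower in cluster 9. By the adjusted p alone, 57 were higher in cluster 0, 4 higher and 2 lower in cluster 1, 3 higher and 25 lower in cluster 2, 17 higher and 4 lower in cluster 3, 50 lower in cluster 4, 1 higher and 2 lower in cluster 6, 28 higher and 1 lower in cluster 8, and 5 lower in cluster 9. Taken as a mean over members, the fold change turned from 0.01 to -0.0031 in cluster 1 and moved from -0.01 to -0.029 in cluster 6. Against genes of like level, the median was 0.042 in cluster 1, turned to 0.22 in cluster 6, and was 0.12 in cluster 8 and 0.019 in cluster 10. No paired analysis was possible because each group is 1 library and the tables pool the libraries, and for the same reason no library could be left out. Counting error limits single members most in cluster 10, with a median of 35.4 estimated counts a member.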
